A study of Mus musculus with 12 samples.

Results

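The comparison described here sets 3 arrays of cells named reprogrammed lung against 3 arrays of cells named reprogrammed mammary, 6 of the 12 arrays of a mouse study on reprogramming adult lineages by stroma during organ regeneration. The arrays were chosen by their titles alone: replicates 1, 3 and 4 of reprogrammed lung and replicates 1, 2 and 3 of reprogrammed mammary. The other 6 arrays hold adult lung (replicates 1, 2 and 3) and adult mammary cells (replicates 1, 2 and 4), and they are used only to show where the reprogrammed difference departs from the adult one. Per the labels, all 12 samples are epithelial cells. The adult donors were female mice of 10 weeks, whose lungs and mammary glands were digested with trypsin and collagenase and whose epithelium was enriched by repeated spins, with no cell sort stated. Single cells were then mixed with Matrigel, a basement membrane gel, for transplantation, and embryonic lung of stage E13.5 was split into epithelium and mesenchyme, though the labels do not say into which samples embryonic tissue went. Which organ the word lung or mammary stands for in a reprogrammed sample, the source of the cells or the tissue they formed, is not given in the labels. They give no strain, no time after transplantation and no statement that the arrays of a group came from separate animals, so p-values measure only the spread between these samples, which may be technical. No genotype or engineered allele is named.

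The mammary gland is a branched duct lined by luminal cells, some of which carry receptors for ovarian hormones and some of which make milk, around which lies a contractile basal layer. The distal lung carries flat alveolar type I cells for gas exchange and surfactant-making type II cells, and its airways carry club and ciliated cells. In both organs the epithelium depends on signals from the surrounding mesenchyme, and in embryonic recombination experiments mesenchyme can steer the form that an epithelium takes.

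Levels are given as log2 of an array's background-corrected signal minus that array's 75th percentile, so that 0 is the 75th percentile of the array. Values of the 6 reprogrammed arrays are listed in the order of the replicates named above. A feature, meaning a gene or an unnamed probe, was tested if it was well above background on all 3 arrays of at least 1 of the 4 groups. That kept 24503 of 32678 features, 14748 of them with a gene symbol, and 24502 could be tested between the reprogrammed groups. Reprogrammed lung replicate 1 stood apart before any comparison: 91.2% of its spots were above background, against 75.4% to 77.2% on the other reprogrammed lung arrays and 74.5% to 77.8% on the reprogrammed mammary arrays. Its signals also spanned a narrower range, 6.16 log2 units once the dimmest and brightest spots at each end were set aside, against 8.70 to 9.20 on the other 5 reprogrammed arrays. Across features it correlated with replicates 3 and 4 at Pearson's r of 0.859 to 0.869, whereas these correlated with each other at 0.951 and the 3 reprogrammed mammary arrays at 0.966 to 0.983. Median differences of most gene lists are given with and without this array. Counts of genes whose reprogrammed lung arrays all lay above or all below reprogrammed mammary include it, unless stated. Over all features such shares were 6.97% above and 6.1% below, and 12.3% and 15.7% with replicates 3 and 4 alone.

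The 2 reprogrammed groups differed at very few features. With limma over all 12 arrays and Benjamini-Hochberg adjustment at 0.05, 2 features were higher in reprogrammed lung, 0.00816% of 24502, and 0 were lower. At an unadjusted p under 0.05 there were 2350 (9.59%), 1364 on the higher side (5.57%) and 986 on the lower (4.02%), and the difference reached 2-fold for 1167 features (4.76%) upward and 439 (1.79%) downward. Between adult lung and adult mammary, measured on other arrays in the same fit, 6979 features were called (28.5%), 3071 of them higher in lung (12.5%) and 3908 lower (15.9%). The standard error of the reprogrammed difference had a median of 0.29 on the log2 scale, and its 95% interval reached a median of 0.65 to either side. That interval lay wholly within 2-fold for 54.6% of features, so that for many of the others a difference of 2-fold or more was not excluded. The spread was uneven: the SD over 3 arrays was larger in reprogrammed lung than in reprogrammed mammary for 86.0% of features, with medians of 0.51 and 0.20, and was 0.27 between reprogrammed lung replicates 3 and 4 alone.

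Both called features were dim. Olfr652, a member of the olfactory receptor family of odorant-sensing receptors, measured -3.63, -4.33 and -4.49 on the reprogrammed lung arrays and -6.93, -7.17 and -6.67 on the reprogrammed mammary arrays. All 3 reprogrammed lung arrays lay above all others, since the adult arrays ran from -7.19 to -6.61, and none of the reprogrammed mammary or adult arrays was above background. The log2 difference was 2.77 ± 0.25 (SE; adjusted p = 0.0104, limma), and against the lowest detectable signal of the dim arrays it amounted to at least 1.90-fold. The raw scale shows how small these signals were, at 24.7, 19 and 22.6 units in reprogrammed lung and 3.52, 2.98 and 4.5 in reprogrammed mammary, where the negative controls of the 12 arrays had medians of 18 to 23 before background correction. The other called feature, the unnamed probe A_51_P147493, measured -4.55 and -3.85 on reprogrammed lung replicates 1 and 4 and had no usable value on replicate 3. It measured -7.14, -7.33 and -7.64 in reprogrammed mammary, with no array above background there. Its log2 difference was 3.17 ± 0.28 (adjusted p = 0.0104), at least 1.83-fold.

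Neither call held when background was modelled instead of subtracted: with normexp correction the log2 differences were 0.50 and 0.59 (adjusted p = 0.973 for each), and on the authors' own values they were 0.61 (adjusted p = 0.328) and 0.86 (adjusted p = 0.42). Both were also lost with quantile normalization (adjusted p = 0.179 and 0.435), with only the 6 reprogrammed arrays (0.466 for each), with slide as a fixed term (0.999), with the replicate number as a term (0.1), with an intensity trend (0.128 and 0.194), and without reprogrammed mammary replicate 1 (0.0649) or 2 (0.0859).

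Olfactory receptor genes as a family leaned toward positive differences. For this family the size of the lean turned mostly on replicate 1. A dim feature could enter the test through the one group in which it was above background, so the family is described over all its members on the array, tested or not. Of 886 olfactory receptor genes, 883 had a value on all 6 reprogrammed arrays. In 148 of these (16.8%) all reprogrammed lung arrays lay above all reprogrammed mammary arrays and in 1 they lay below, against 6.91% and 4.62% of all features on the array. The median difference was 0.84, and 0.20 without reprogrammed lung replicate 1, against 0.16 and -0.015 over all features on the array. Among the tested features with a value on every reprogrammed array, the shares above and below without overlap were 6.97% and 6.1%. The median level of the 374 olfactory receptors that passed the filter was -2.25, -2.96 and -3.63 on the reprogrammed lung arrays and -3.66, -3.41 and -3.74 on the reprogrammed mammary arrays, highest on the array with the narrowest signal range. The vomeronasal receptors, which sense pheromones, had a median difference of 0.98 over all 127 on the array (0.27 without that array). Among tested features the 2324 above background on fewer than all 6 reprogrammed arrays had a median difference of 0.54. It was 0.034 for the 22179 above background on all 6, and 0.52 for the 374 tested olfactory receptors. A dim feature can pass the filter through reprogrammed lung alone, so these medians of tested features are not read as a lean. The parts of the filter, of dimness and of the narrower signal range in these values were not tested. Of the tested genes within 15 places of Olfr652 in the RefSeq gene order, none other was called, and Olfr651 beside it differed by 1.07 (adjusted p = 0.475).

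The genes that came closest to the threshold on the higher side did not pass it. Csrnp3, a nuclear protein with transcriptional activity, measured -3.05, -3.33 and -3.92 in reprogrammed lung and -5.61, -5.67 and -5.85 in reprogrammed mammary, where it was not above background on any array. The groups did not overlap, and the log2 difference was 2.28 ± 0.32 (adjusted p = 0.0848), at least 3.12-fold. Abcg2, an efflux transporter that also carries compounds into milk, measured 0.57, 0.71 and 0.62 against -0.54, -0.71 and -0.34, well inside the detected range. Its difference was 1.16 ± 0.19 (adjusted p = 0.117), while in the adult cells it was lower in lung, with a difference of -1.18 (adjusted p = 0.00145). The difference between these 2 organ differences was 2.34 and passed the test (adjusted p = 0.000827).

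Slc25a17, a carrier of the peroxisome membrane, was well detected on all arrays. It measured 1.37, 3.21 and 3.16 in reprogrammed lung and 0.27, -0.09 and 0.33 in reprogrammed mammary, with the adult arrays of both organs at 1.79 to 2.23. Reprogrammed mammary therefore lay below all other arrays, while reprogrammed lung replicates 3 and 4 lay above them. Over all arrays the difference was 2.41 ± 0.41 (adjusted p = 0.12), and without reprogrammed lung replicate 1 it was 3.02 and passed (adjusted p = 0.000503). The remaining genes with the smallest p on the higher side were Olfr20, the class I histocompatibility gene H2-M1, the acetylcholine receptor chaperone Ric3, the oxysterol-binding protein Osbpl6, the organic anion carrier Slco4c1 and the glucocorticoid-induced gene Tsc22d3, with log2 differences of 1.40 to 3.48 and adjusted p of 0.113 to 0.156. H2-M1 differed from the adult arrays in pattern: it measured -2.90, -1.78 and -2.87 against -6.52, -6.78 and -4.69, whereas adult lung lay at -7.33 to -6.22 and adult mammary at -3.97 to -3.45.

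None of the genes closest to the threshold on the lower side passed it either. Gata3, a transcription factor of luminal mammary cells, measured 2.04, 2.96 and 2.72 in reprogrammed lung and 4.12, 4.06 and 4.38 in reprogrammed mammary. All reprogrammed lung arrays lay below all reprogrammed mammary arrays and near the adult mammary arrays, which ran from 2.77 to 3.18; the difference was -1.61 ± 0.26 (adjusted p = 0.117). Padi2, which converts arginine residues of proteins to citrulline, measured -1.68, -2.40 and -0.73 against 1.29, 1.62 and 1.63, a difference of -3.11 ± 0.48 (adjusted p = 0.113). Grb14, an adaptor of the insulin receptor, differed by -1.34 ± 0.18 (adjusted p = 0.0848) and ran the opposite way in the adult cells, where it was 1.20 higher in lung (adjusted p = 0.001005). Cd24a, a surface glycoprotein of mammary epithelium, measured 3.52, 4.11 and 4.21 against 5.02, 5.09 and 5.21. The homeobox gene Msx2, the lipid kinase Dgki, the Rac exchange factor Dock5, Tmem168, Ttc39b and Apc, a brake on Wnt signalling, differed by -2.78 to -1.01 with adjusted p of 0.117 to 0.152. Of these 10 genes, 7 (Padi2, Gata3, Tmem168, Cd24a, Msx2, Dock5 and Dgki) were also lower in adult lung than in adult mammary, while for Ttc39b and Apc the adult differences were 0.21 and 0.14 and were not called.

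**Figure D1:**
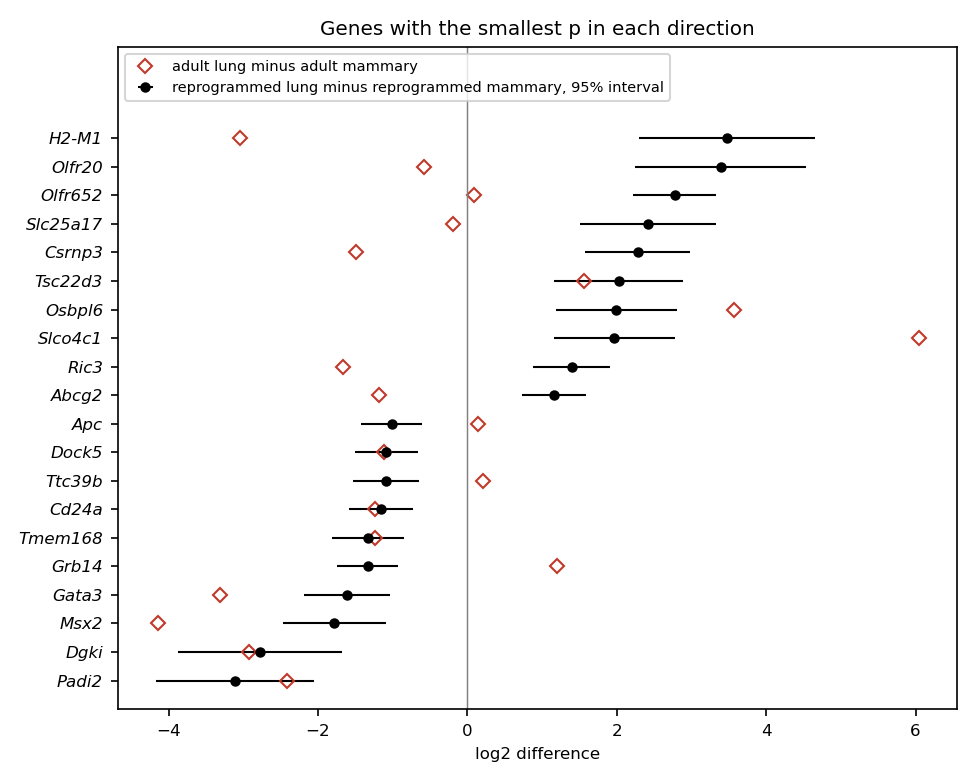
Log2 difference between reprogrammed lung and reprogrammed mammary for the 10 named genes with the smallest p in each direction (black points, with 95% intervals), beside the difference between adult lung and adult mammary (red diamonds). Of these 20 genes Olfr652 alone passed the adjusted threshold; for Slc25a17 the reprogrammed difference is 2.41 and the adult one -0.19, while for Dgki, Cd24a and Dock5 the points nearly coincide.

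The lung lineage markers Sftpc, Scgb1a1 and Nkx2-1 gave no call between the reprogrammed groups and lay far below adult lung in both. Sftpc, the surfactant protein C gene of alveolar type II cells, measured -2.15, -3.01 and -1.05 in reprogrammed lung and -1.98, -2.40 and -3.17 in reprogrammed mammary. The groups overlapped, and adult lung lay at 7.20 and 7.34 on the 2 arrays with a value. The reprogrammed difference was 0.45 (95% interval -0.62 to 1.52), against 10.54 in the adult cells; the difference of the differences, -10.09, passed the test (adjusted p = 0.000129). Scgb1a1, the secretoglobin of club cells, measured -1.91, -2.25 and 0.71 against -0.58, -2.27 and -2.37, with adult lung at 7.93 to 8.49. Its reprogrammed difference was 0.59 (95% interval -1.05 to 2.24), and the difference from the adult one was -9.58 (adjusted p = 0.000623). Nkx2-1, the transcription factor that specifies lung and thyroid, was not above background on any of the 6 reprogrammed arrays.

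The longer lung lists gave no call either, though not every member lay below adult lung. The type I gene Aqp5 and the type II gene Cxcl15 averaged 3.19 and 2.31 in reprogrammed mammary, against 2.17 and 2.08 in adult lung. Of 18 tested type II genes, 0 were called between the reprogrammed groups, 11 differences were positive and 7 negative, and the median was 0.094 (all features 0.057). In the adult cells 16 of the 18 were higher in lung (12.5% of all features were), with a median of 4.44. For 13 the reprogrammed difference lay below the adult one in the test of the difference (5.39% of all features did). Chia1, a chitinase, ran at -0.19 against 9.91 in the adult cells, and the surfactant genes Sftpb and Sftpa1 at -0.16 and 1.01 against 6.82 and 9.22. The type II genes that moved most were Cxcl15, at -2.76 against 1.63 in the adult cells, and Sftpd, at 1.17 against 5.53. Among 17 tested type I genes 0 were called and the median was -0.06 (-0.17 without replicate 1); Ager, the receptor that marks type I membranes, measured -1.49, -2.27 and -2.21 against -1.70, -2.08 and -2.0. The homeodomain gene Hopx, also of type I cells, stood at -0.30, -0.29 and -0.25 against -0.64, -0.25 and -0.63. For Hopx and Ager the differences were 0.22 ± 0.19 and -0.06 ± 0.27, but only 7 of the 17 type I genes had a 95% interval within 2-fold. Cldn18 had the largest difference of the type I list, 2.59 (adjusted p = 0.555, limma), against 8.23 in the adult cells. It lay higher on all reprogrammed lung arrays, and its difference was 1.28 without replicate 1.

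A few lung genes lay higher on all reprogrammed lung arrays without passing, and others lay lower. Of the 17 tested type I genes 2 lay higher in this way and 5 lower (6.97% and 6.1% of all features did). Among the lower was Aqp5, with a difference of -1.86 (adjusted p = 0.384, limma). For the 18 tested type II genes these counts were 0 and 1. Col4a3, a basement membrane collagen chain of the alveolus, measured -2.80, -2.94 and -3.02 in reprogrammed lung and -4.54, -4.03 and -3.52 in reprogrammed mammary; the difference was 1.11 ± 0.27 (adjusted p = 0.253), against 5.77 in the adult cells. Scgb3a1, another airway secretoglobin, measured 0.00, 0.51 and 3.70 against -0.64, -0.45 and -0.84, so that replicate 4 carried most of its difference of 2.05 ± 0.78 (adjusted p = 0.475). On that same array Bpifa1, a secreted airway defence protein, measured -1.53, against -7.15 and -4.74 on the other reprogrammed lung arrays and -7.60 to -7.12 in reprogrammed mammary. Of the 17 tested airway genes 3 lay above in this way (6.97% of all features did), 0 below and 0 were called. Foxf1, Tbx4 and Foxa2, transcription factors of lung mesenchyme and endoderm, differed by 0.21, 0.62 and 0.63 with overlapping arrays, against 6.27, 6.45 and 5.27 between the adult organs. Over all 21 tested lung lineage transcription factors 10 differences were positive and 11 negative, with a median of -0.006 (-0.012 without replicate 1). On all reprogrammed lung arrays 0 of them lay higher and 2 lower. Between the adult organs 9 were higher and 6 lower in lung (12.5% and 15.9% of all features were), with a median of 0.38.

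Mammary lineage genes were carried by both reprogrammed groups. Wfdc18, a secreted mammary protein with a whey acidic protein domain, measured 3.48, 7.54 and 5.09 in reprogrammed lung and 4.83, 5.24 and 4.72 in reprogrammed mammary, with adult mammary at 4.91 to 6.15 and adult lung at -5.02 to -4.39. The reprogrammed lung arrays spanned the reprogrammed mammary ones on both sides. Csn3, which encodes kappa-casein, measured 2.13, 4.92 and 4.05 against 5.30, 4.67 and 4.75, a difference of -1.21 (95% interval -3.06 to 0.65). The adult difference was -9.86, and the test of the 2 differences gave 8.65 (adjusted p = 0.00172). The milk protein and alveolar luminal list of 23 tested genes held 0 calls, with 9 positive and 14 negative differences, a median of -0.55 (0.17 without reprogrammed lung replicate 1) and 0 genes without overlap in either direction. Csn2, the beta-casein gene, measured -2.91, 4.26 and -4.89 in reprogrammed lung, a range far wider than the 0.33, -2.03 and -2.37 of reprogrammed mammary. Csn1s1 and Wap, the alpha-casein and whey acidic protein genes, were also highest on replicate 3, at 5.40 and 0.97.

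**Figure D2:**
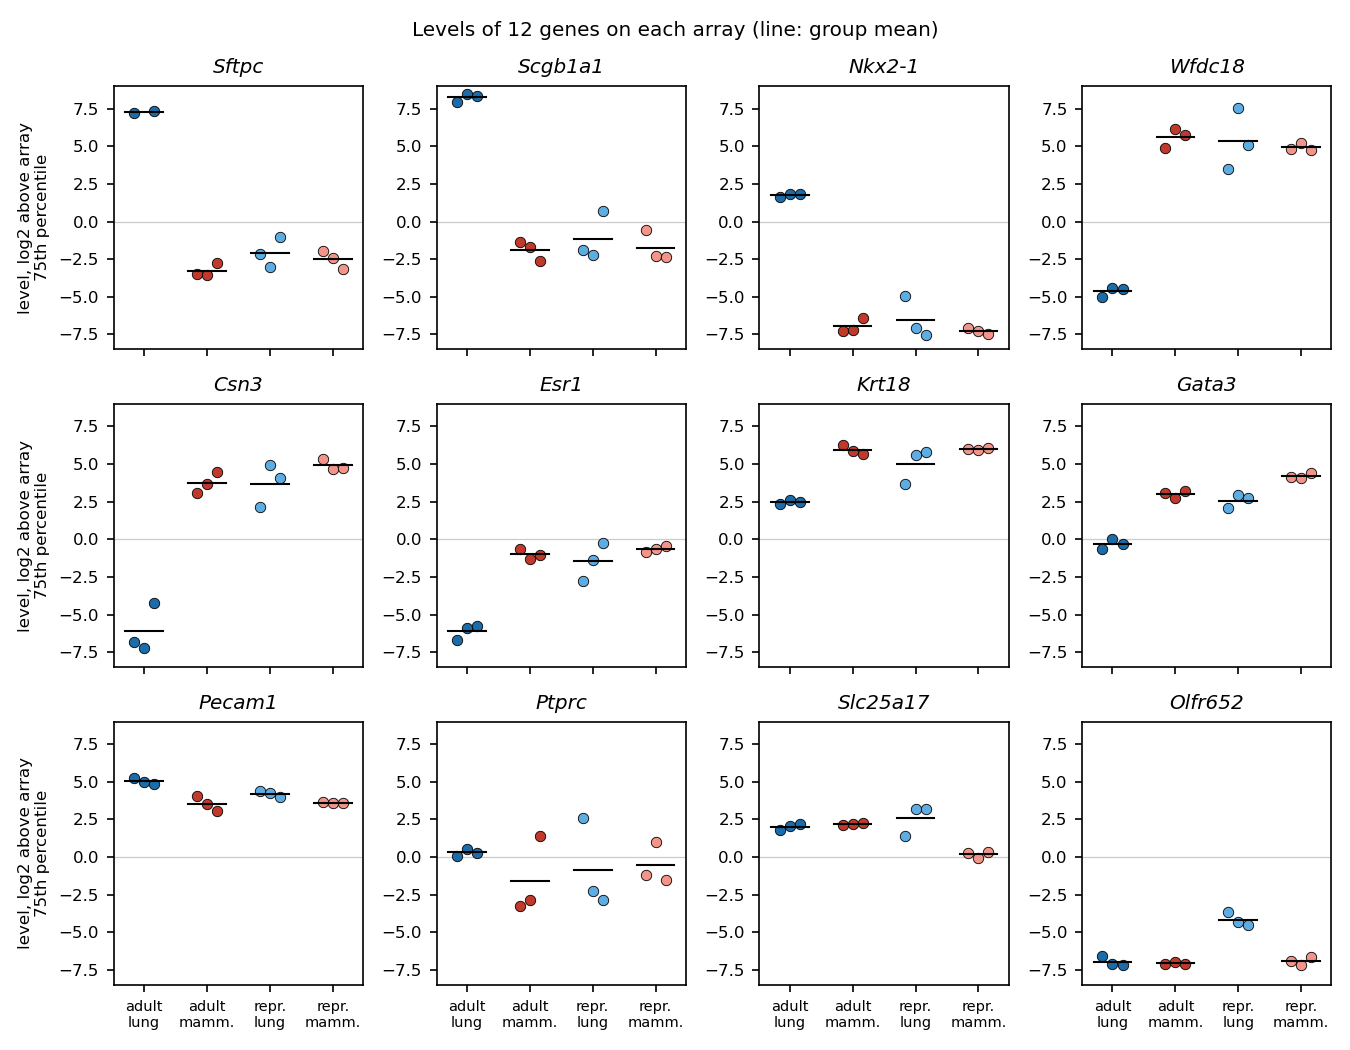
Level of 12 genes on each of the 12 arrays (points, log2 above the array's 75th percentile), by group, with the group mean as a line. Sftpc, Scgb1a1 and Nkx2-1 are high in adult lung only and overlap between the reprogrammed groups, as do Wfdc18 and Csn3 at the adult mammary level; Ptprc runs from -2.84 to 2.61 over the 3 reprogrammed lung arrays, and Olfr652 is above background only in reprogrammed lung.

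Over the genes that separate the adult organs, the reprogrammed groups kept a small share of the difference. Of 4728 features that differed at least 2-fold and passed the test between adult lung and adult mammary, the reprogrammed difference had a median of 8.04% of the adult one, and for 2488 the 2 differences were themselves different in the limma test, each time with the reprogrammed one shifted toward 0 or past it. Over all features that test called 1816 (7.41%) above the adult difference and 1321 (5.39%) below it. The adult values that chose these genes also enter that test. In the 363 genes higher in adult lung by 8-fold or more, the median reprogrammed difference was 0.59 and 84.3% were positive; in the 397 higher in adult mammary it was -0.42 and 32.8% were positive. Most of that rested on 1 array: without reprogrammed lung replicate 1 these medians were 0.18 and -0.044, and the share over the 760 genes together was 2.91% in place of 12.2%. Across all 24502 features the reprogrammed and adult differences, which share no arrays, correlated at r of 0.22, and at 0.026 without that array; this is a description across genes, which are not independent replicates.

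Each array was placed on a scale where 0 is the mean of adult mammary and 1 that of adult lung, by the median over the 760 genes. The reprogrammed lung arrays lay at 0.26, 0.021 and 0.058, and the reprogrammed mammary arrays at -0.0067, 0.013 and -0.010. All 3 reprogrammed lung arrays lay above all 3 reprogrammed mammary arrays, 2 of them close to these (means 0.11 ± 0.13 and -0.0013 ± 0.012, SD, n = 3 each). The exact two-sided permutation p was 0.1, the smallest that 3 against 3 arrays allow. Over the 4728 genes of 2-fold or more the arrays overlapped (exact permutation p = 0.2).

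**Figure D3:**
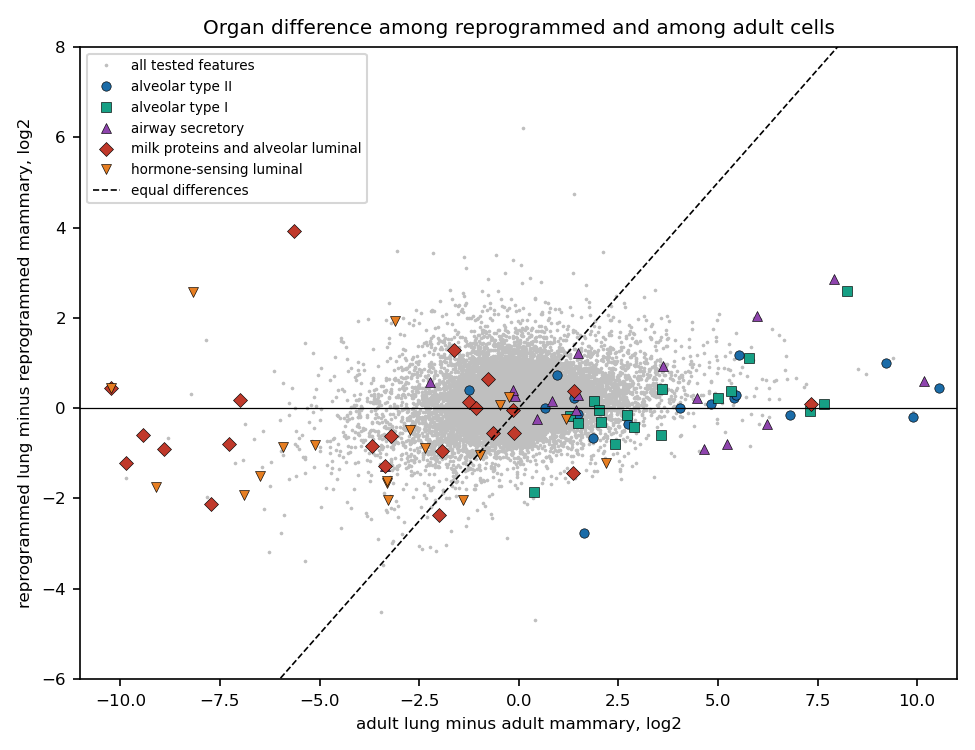
Difference between reprogrammed lung and reprogrammed mammary (vertical axis, log2) against the difference between adult lung and adult mammary (horizontal axis, log2) for all tested features, with 5 marker lists in colour and a dashed line where the 2 would be equal. Alveolar and airway genes reach 10.54 on the horizontal axis at reprogrammed differences near 0, and milk genes reach -10.24 in the same way.

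General epithelial genes had mostly negative differences, and their size turned on 1 array. Of 25 tested genes, 23 differences were negative, 7 genes lay lower on all reprogrammed lung arrays (6.1% of all features did), and 0 were called; the median was -0.99, or -0.21 without reprogrammed lung replicate 1. Epcam, a surface adhesion protein of epithelia, measured 1.58, 4.65 and 4.33 in reprogrammed lung and 4.74, 4.33 and 4.91 in reprogrammed mammary. Replicate 1 alone lay below all reprogrammed mammary arrays for Epcam. Krt18, a keratin of simple epithelium, measured 3.66, 5.57 and 5.81 against 6.03, 5.93 and 6.05, and Krt19, a luminal keratin, 1.07, 3.99 and 4.37 against 5.00, 4.96 and 5.09. The summed linear signal of the 25 genes was 54.7, 230.9 and 254.6 times the 75th percentile in reprogrammed lung, and 281.5 to 324.1 times it in reprogrammed mammary. In samples of many cells, fewer epithelial cells and less RNA per cell cannot be told apart.

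Hormone-sensing luminal genes, which mark the ductal cells that read estrogen, progesterone and prolactin, also held mostly negative values. Of 19 tested genes 14 differences were negative, 6 lay lower on all reprogrammed lung arrays (6.1% of all features did) and 0 were called, with a median of -0.88 (-0.51 without reprogrammed lung replicate 1). The other 5 were positive, and 9 negative and 2 positive differences reached 2-fold. The largest in either direction was positive, that of Calca at 2.58 (adjusted p = 0.581, limma), whose arrays overlapped. Tbx3, a T-box factor of mammary placode and duct, measured 1.66, 1.65 and 2.46 in reprogrammed lung and 3.07, 2.88 and 3.50 in reprogrammed mammary. The groups did not overlap, the difference was -1.22 ± 0.29 (adjusted p = 0.249), and it ran against the adult one, which was 2.18 higher in lung; the gap of -3.40 between them passed (adjusted p = 0.000985). Prom1, a membrane glycoprotein carried by hormone-sensing luminal cells, measured -2.30, -3.38 and -2.82 against -0.55, -1.26 and -0.56, a difference of -2.04 ± 0.40 (adjusted p = 0.156). Prlr, the prolactin receptor, measured 0.92, 2.79 and 3.58 against 4.58, 3.71 and 4.78, without overlap, replicate 4 lying just under the lowest reprogrammed mammary array (adjusted p = 0.405).

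The receptors for estrogen and progesterone overlapped between the groups. Esr1, the estrogen receptor, measured -2.75, -1.38 and -0.27 against -0.82, -0.64 and -0.46, a difference of -0.82 ± 0.52 (adjusted p = 0.649). Pgr, the progesterone receptor, measured 1.15, 2.09 and 4.21 against 4.48, 4.15 and 4.93, and its difference of -2.04 came mainly from replicates 1 and 3. Areg, the epidermal growth factor relative that relays the estrogen signal in the duct, measured 3.91, 3.80 and 4.47 against 5.67 and 5.76, with no usable value on reprogrammed mammary replicate 2 (adjusted p = 0.322). For Esr1 the test against the adult difference of -5.11 gave 4.29 (adjusted p = 0.00513), so the estrogen receptor did not separate the reprogrammed groups as it separates the adult organs. Among 20 tested mammary ductal transcription factors, several of them members of the previous list, 14 differences were negative, 5 lay lower on all reprogrammed lung arrays (6.1% of all features did) and the median was -0.79, or -0.25 without replicate 1. Sox9, a factor of luminal progenitors and of the lung bud tip, measured 0.50, 3.27 and 3.02 against 3.52, 3.45 and 3.27; replicate 3 lay within the reprogrammed mammary range and the other 2 below it.

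Genes of the basal layer lay closer to 0. Of 20 tested basal and myoepithelial genes 14 differences were negative, 1 lay lower on all reprogrammed lung arrays, a share near the 6.1% of all features, 0 were called and the median was -0.06 (-0.17 without replicate 1). Krt14, a basal keratin, measured 1.22, 3.52 and 2.56 in reprogrammed lung and 3.63, 2.29 and 3.95 in reprogrammed mammary. The contractile genes Myh11 (smooth muscle myosin), Tagln (an actin binder) and Actg2 (an enteric actin) differed by -0.051, -0.0027 and -0.036 with standard errors of 0.17 to 0.30.

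Endothelial genes had positive differences throughout. Of 20 tested members, 9 lay higher on all reprogrammed lung arrays (6.97% of all features did), 0 were called, and the median was 0.56 (0.44 without reprogrammed lung replicate 1, and 0.22 within the single slide that carried arrays of both groups). Pecam1, an adhesion molecule of endothelial junctions, measured 4.41, 4.24 and 3.98 in reprogrammed lung and 3.65, 3.57 and 3.62 in reprogrammed mammary, a difference of 0.59 ± 0.24 (adjusted p = 0.493). Esam, another junction protein, measured 2.51, 2.29 and 2.06 against 1.74, 1.43 and 1.67, with a difference of 0.67 ± 0.20 (adjusted p = 0.353). In the adult cells 17 of the 20 were higher in lung (12.5% of all features were), with a median of 2.23. For 12 the reprogrammed difference was below the adult one in the test (5.39% of all features were), among them Egfl7, a secreted endothelial protein (0.73 against 3.24). The summed signal of the list ran from 85.9 to 135 times the 75th percentile in reprogrammed lung and from 70.2 to 77.7 times it in reprogrammed mammary. The labels name all samples epithelial, and how far endothelial cells enter other differences was not tested.

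Lymphocyte genes varied between arrays of the same group far more than between the groups. Ptprc, a surface phosphatase of all white blood cells, measured 2.61, -2.27 and -2.84 in reprogrammed lung and -1.21, 1.02 and -1.49 in reprogrammed mammary. Cd79b, a chain of the B cell receptor complex, measured 5.11, -2.44 and -1.93 against -0.045, 1.52 and -1.47. High arrays were therefore found in both groups, replicate 1 of reprogrammed lung above the others, and the 18 tested B cell genes had a median difference of 0.24 that became -1.85 without that array. Their summed signal was 205.4, 2.57 and 4.07 times the 75th percentile in reprogrammed lung and 11.2, 33.0 and 2.76 times it in reprogrammed mammary. Genes of 2 related lists ranked the same 3 arrays highest. The median level of 9 genes of class II antigen presentation was 5.03, -1.02 and -0.21 against 1.02, 2.61 and 0.0080, and that of 21 T and natural killer cell genes was 0.056, -3.42 and -2.87 against -2.0, -0.048 and -3.25. In 32 cell cycle genes, the medians were -0.54, -1.56 and -1.86 against -0.80, -0.048 and -1.21, so that the 2 arrays with the most B cell signal also had the highest proliferation values. The median difference of the 32 was -0.52, and -1.05 without reprogrammed lung replicate 1. On all reprogrammed lung arrays 0 of them lay lower, and 19 did so without that array (6.1% and 15.7% of all features did). Whether the B cell signal contributes to the cell cycle values was not tested. For Top2a, a topoisomerase of dividing cells, the difference was -1.31 (adjusted p = 0.75).

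Stromal genes split the reprogrammed lung arrays in another way. Dcn, a small proteoglycan of fibroblasts, measured 5.02, 3.24 and 6.43 in reprogrammed lung and 5.63, 5.58 and 6.01 in reprogrammed mammary, and Pdgfra, a growth factor receptor of mesenchyme, 2.36, 2.49 and 4.97 against 3.67, 3.74 and 3.93. Replicate 4 lay above and replicates 1 and 3 below the reprogrammed mammary arrays for Pdgfra, and the median level of the 23 tested stromal genes, at 1.29, 1.79 and 3.85 against 3.00, 2.60 and 2.90, placed these arrays likewise. The list's median difference was -0.36 with 0 genes free of overlap, and it was -0.052 without replicate 1 and 1.00 within the slide that carried both groups. Replicate 4 was also the lowest of the 3 for milk genes, with a median level of 0.32 against 3.09 on replicate 3. Among adipocyte genes, Fabp4, a fatty acid binding protein, measured 6.63 and 6.98 on replicates 1 and 3 against 6.35, 6.02 and 6.17, with no usable value on replicate 4, while its adult difference was -4.74 and the gap of 5.36 passed (adjusted p = 0.000288).

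**Figure D4:**
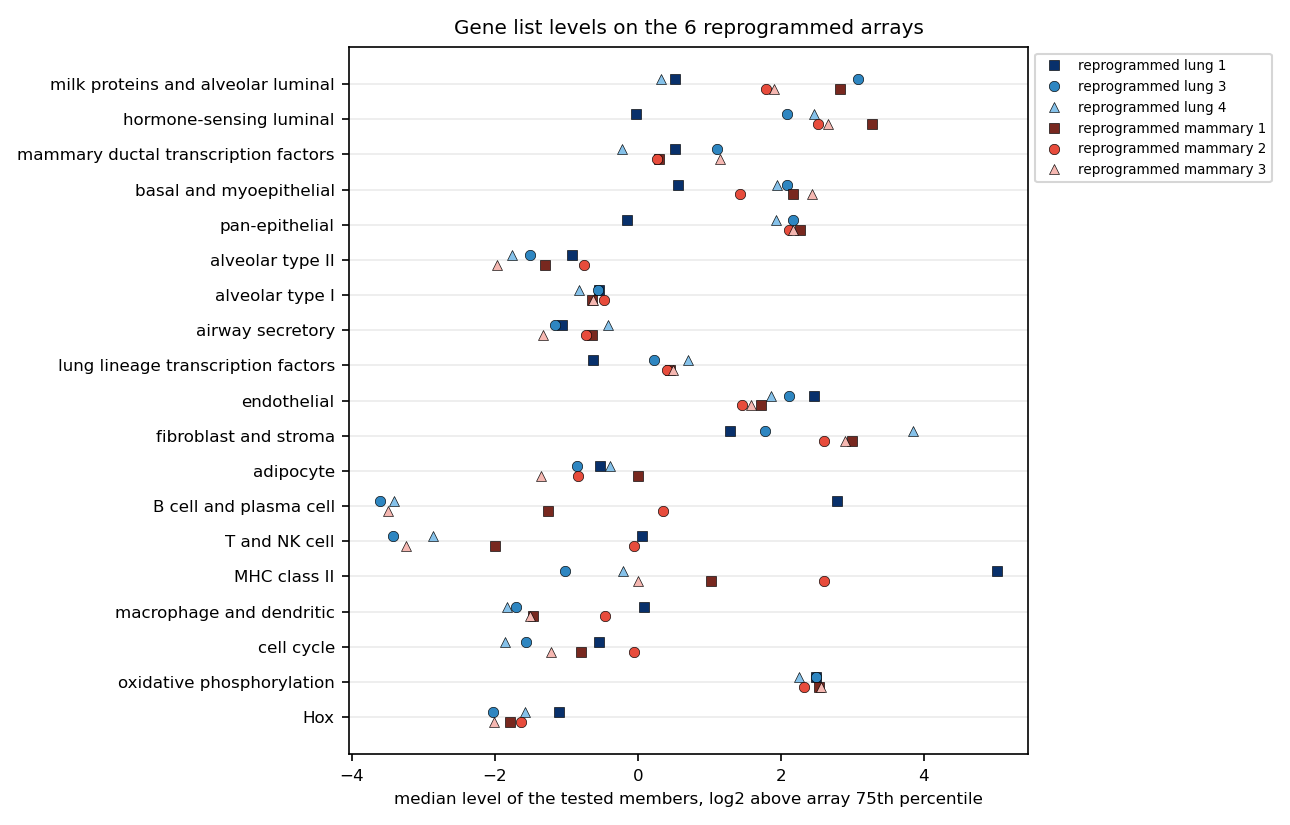
Median level of 19 marker lists (rows) on each of the 6 reprogrammed arrays (points, log2 above the array's 75th percentile), with reprogrammed lung and reprogrammed mammary in separate colours. The reprogrammed mammary points lie close together for epithelial (2.12 to 2.27) and endothelial lists (1.46 to 1.73), while reprogrammed lung replicate 1 stands apart for B cell (2.79), class II (5.03) and epithelial genes (-0.15).

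Hox genes, which keep a record of position along the body axis, gave 28 positive and 1 negative difference among 29 tested members, with 7 higher on all reprogrammed lung arrays (6.97% of all features were), 0 called and a median of 0.34. That median was 0.070 without reprogrammed lung replicate 1, on which the list's level was -1.10, against -2.03 and -1.58 on the others and -2.02 to -1.63 in reprogrammed mammary. Hoxa5, needed for lung development, measured -1.75, -2.49 and -2.19 in reprogrammed lung and -3.15, -3.13 and -3.07 in reprogrammed mammary. All arrays of the first group lay above those of the second, with a difference of 0.97 ± 0.23 (adjusted p = 0.252) against 3.59 in the adult cells. Hoxc10, a posterior gene, measured 1.66, 1.12 and 2.43 against 1.42, 1.32 and 1.53 and overlapped, where the adult difference was -8.22. The test of the 2 differences gave 8.54 for Hoxc10 (adjusted p = 3.01e-05) and -2.62 for Hoxa5 (adjusted p = 0.00118). Hoxd9, of the posterior HoxD group, lay higher on all reprogrammed lung arrays (3.34, 3.82 and 3.70 against 2.85, 3.04 and 2.90), opposite in sign to its adult difference of -4.11.

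Signalling genes were spread on both sides of 0. Of 32 tested Wnt genes 14 differences were positive and 18 negative with a median of -0.051 (0.043 without replicate 1), and of 36 genes of the fibroblast growth factor, epidermal growth factor and Notch pathways 16 were positive and 20 negative with a median of -0.033 (0.011 without it). In 34 genes of the transforming growth factor beta and bone morphogenetic protein pathways the median was 0.034 (0.15 without it). Wnt5a, a ligand that does not act through beta-catenin in most settings, measured -1.76, -0.68 and 0.68 against 2.38, 2.35 and 2.70. That is a difference of -3.06 ± 0.58 (adjusted p = 0.156), with every reprogrammed lung array below every reprogrammed mammary array. Btc, a ligand of the epidermal growth factor receptor, measured -2.68, -2.96 and -2.36 against -0.60, -1.50 and -1.04 (difference -1.62, adjusted p = 0.259). Erbb3, a neuregulin receptor, measured 0.55 and 3.68 on replicates 1 and 4 against 3.94, 3.80 and 4.04, with no usable value on replicate 3. Notch1 measured -0.78, -0.35 and -0.87 against 0.14, -0.12 and 0.12 (difference -0.72, adjusted p = 0.336).

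For the housekeeping lists the intervals were narrow. In 77 cytosolic ribosomal protein genes the median difference was 0.057 (0.027 without replicate 1), the same as over all features. Of their 95% intervals 76 lay within 2-fold, and 0 genes were called. In the adult cells 69 of the 77 were lower in lung (15.9% of all features were), with a median of -0.98. For 49 of them the reprogrammed difference lay above the adult one in the test (7.41% of all features did). Of 39 oxidative phosphorylation genes 33 differences were negative, 14 lay lower on all reprogrammed lung arrays (6.1% of all features did), and 0 were called. Their median was -0.23 (-0.15 without replicate 1), and 37 of the intervals lay within 2-fold. Cox8a, a subunit of cytochrome c oxidase, measured 5.39, 5.54 and 5.63 against 5.94, 5.88 and 5.86, a difference of -0.37 (adjusted p = 0.478). Xist, the one tested gene of the sex-linked list, differed by -0.34, and the Y-linked genes Ddx3y, Eif2s3y and Kdm5d were above background on 0 of the 12 arrays, the labels naming female donors.

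Calls between the reprogrammed groups depended on single arrays. Without reprogrammed lung replicate 4, 162 of 24502 features passed, 105 on the higher side and 57 on the lower. They held 16 of the 374 tested olfactory receptors and 7 of the 43 tested vomeronasal receptors. A dim receptor can enter the test through reprogrammed lung alone, so nothing is drawn from these counts about the receptors. Both families had their highest median level on replicate 1, which stays in that comparison. The 162 also held Wnt5a at -3.70 (adjusted p = 0.0203), Gata3 at -1.68 (adjusted p = 0.0436) and Pgr at -2.90 (adjusted p = 0.0344). Erbb3 passed there too, at -3.38 (adjusted p = 0.00306), but with replicate 1 as its one array with a value. Without replicate 1, 4 passed, all on the higher side and including Slc25a17 and both features of the full comparison, and without replicate 3, 6 were higher and 7 lower. The arrays lay on 5 slides, of which 1 held both groups (reprogrammed lung replicate 4 and reprogrammed mammary replicate 2); within it the median share of the adult difference kept was 4.01%.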

How the data were processed

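RNA of 12 samples was amplified and hybridised to single-colour Agilent mouse arrays. Per the file headers, the authors' intensity values are background-subtracted processed signals from Feature Extraction 10.5.1.1 (the submitters' processing notes name 10.1). The authors' deposited value table, taken as log2 values whose ranks match the raw median signals and whose column medians are equal, served as an alternative. From the intensities, log2 signal minus each array's 75th percentile was computed, control and outlier spots were left out, spots of a probe were averaged, and the probe with the highest mean stood for a gene. Probes without a symbol (16330 of 41174) were kept unnamed. No coordinates are given, and some genes are not reported here. The model held 4 group means (limma 3.58.1, R 4.3.3), with Benjamini-Hochberg adjustment at 0.05 over all tested features. The test was checked on simulated data in which a gene had the same spread in all 4 groups. That check does not cover the uneven spread of the reprogrammed groups. A missing value dropped that array for the feature (308 features). Fold bounds set dim arrays at their lowest detected signal. Precision is limited by 3 arrays a group. The text names features past the threshold or else with the smallest p, the members of each of 43 lists that moved most, and fixed identity genes; other list members were chosen after their values were seen. Members and lists were chosen with earlier results of these data known. Slides were tested as batches. Alternatives covered background, scaling, filter, arrays left out, slide, replicate number, weights and variance settings.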

Additional observations from a re-analysis of the deposited data

Results flagged for a closer look

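The organ difference of the reprogrammed groups was set against that of the adult groups in the same limma fit, and 1816 features had a reprogrammed difference above the adult one and 1321 below it (7.41% and 5.39% of those tested). Each gene below passed that test of the difference itself, and its value is the reprogrammed minus the adult log2 difference. Among the named lung markers the values were negative: Sftpc (-10.09), Scgb1a1 (-9.58), Nkx2-1 (-7.97), Cxcl15 (-4.38), a lung chemokine, and Scgb3a1 (-3.94). Over the full lists, 1 airway gene and 1 lung lineage transcription factor lay above the adult difference, against 8 and 6 below it. Among the named genes of the mammary and general epithelial lists the values were positive: Calca (10.74), Wfdc18 (10.68), Csn3 (8.65), Sox9 (5.76), also a factor of the lung bud tip, Esr1 (4.29), Krt18 (2.48), Igfbp5 (2.27) and Gata3 (1.70). In the full milk, hormone-sensing and ductal lists 7, 8 and 9 genes lay above the adult difference. In each of these lists 1 gene lay below it, Tbx3 of the hormone-sensing list among them. Calca measured -3.16, 0.95 and -5.68 in reprogrammed lung and -3.76, -5.30 and -6.56 in reprogrammed mammary, where 1 array was above background. Adult mammary lay at 0.94 to 2.32, so its value came mainly from the adult difference of -8.16. Cxcl15 measured -1.02, -1.32 and 0.99 in reprogrammed lung and 2.65, 1.43 and 2.84 in reprogrammed mammary, so that this lung gene lay lower on every array named lung.

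Among the genes closest to the threshold between the reprogrammed groups, the values were 6.53 for H2-M1, 3.97 for Olfr20, 3.77 for Csrnp3, 3.11 for probe A_51_P147493, 3.06 for Ric3, 2.68 for Olfr652, 2.60 for Slc25a17, 2.36 for Msx2 and 2.34 for Abcg2. On the negative side they were -4.08 for Slco4c1, -2.54 for Grb14, -1.30 for Ttc39b and -1.15 for Apc. Of genes from other lists, Rspo1, a Wnt agonist, stood at 5.98, the scavenger receptor Cd163 at 5.11, Asb4 at 4.35, the growth regulator Myc at 3.90, the uncoupling protein Ucp1 at 3.52 and Thrsp at 3.18. The ribosomal protein genes Rpl14 and Fau gave 1.33 and 1.11 and the matrix protease Mmp14 gave 1.30. Egfl7 gave -2.51 and the neighbouring genes Trim12c and Trim12a -1.25 and -0.99. Rspo1 measured -3.16, 0.25 and -4.13 in reprogrammed lung, where replicate 3 stood furthest above the reprogrammed mammary range of -4.68 to -4.05.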

How the results depend on the processing

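Against 2 features higher and 0 lower in reprogrammed lung, 0 were higher with normexp background, quantile normalization, the authors' values, only probes above background on all 12 arrays, only the 6 reprogrammed arrays, slide as a fixed term, the replicate block or an intensity trend, 1 with robust variances, 4 with median scaling, 8 (and 3 lower) when reprogrammed lung replicate 1 was left out with adult mammary replicate 4, and 12 (and 12 lower) with array weights; leaving out 1 array gave 0 to 105 higher and 0 to 57 lower. Counts of features whose reprogrammed difference lay above and below the adult one (1816 and 1321) were 390 and 748 with normexp, 619 and 548 with slide, 647 and 490 with the replicate block, 3193 and 2681 with weights, 2775 and 2938 without those 2 arrays, and 1029 to 2850 and 763 to 2406 leaving out 1 array; median scaling gave 1112 above. The share of the adult difference kept ran from -0.557% to 13.6%. With normexp the reprogrammed minus adult difference turned sign for Olfr652 (-0.50), Csrnp3 (-0.22), Olfr20 (-0.14), Msx2 (-0.72) and probe A_51_P147493 (-0.46), without the 2 arrays for Marco (-1.81) and Zfp42 (-1.06), and without reprogrammed lung replicate 4 for Erbb3 (-1.15; leaving out 1 array it ran from -1.15 to 1.98); the causes were not tested. The median over all features was 0.057, -0.080 with median scaling and -0.027 without reprogrammed lung replicate 1. Only replicate numbers 1 and 3 were shared, and their deviations correlated at -0.21 and 0.33. Pairs with unlike numbers between the reprogrammed groups ran from -0.43 to 0.52, so these values cannot decide whether the numbers pair the arrays. The normexp setting started from median spot signals. Array number and dim probes limit the precision.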

Other observations

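Metabolic lists not described above held 0 calls between the reprogrammed groups. In 19 genes of fatty acid and triglyceride synthesis 9 differences were positive and 10 negative, with a median of -0.031 (0.15 without reprogrammed lung replicate 1). Thrsp, a regulator of lipogenesis, measured 0.085, 1.07 and -0.38 in reprogrammed lung and -1.20 and -1.42 on reprogrammed mammary replicates 1 and 3. The 2 sets did not overlap, and the difference was 1.57 (adjusted p = 0.336, limma). Of 18 cholesterol synthesis genes 15 were negative with a median of -0.27 (-0.15 without that array), and of 25 hypoxia and glycolysis genes 16 were negative with a median of -0.28 (-0.024 without it).

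Imprinted genes of growth control were likewise mixed, with 5 positive and 9 negative differences among 14 and a median of -0.14 (-0.094 without it). Asb4 measured 0.74, 0.53 and -0.40 in reprogrammed lung and -0.59, -0.76 and -0.90 in reprogrammed mammary, without overlap (difference 1.04, adjusted p = 0.493), while its adult difference was -3.31. Csrnp3 and Grb14, the genes nearest to the threshold in each direction after the called ones, lie 5 places apart in the RefSeq gene order with differences of 2.28 and -1.34. Scn1a, a sodium channel gene close by, differed by 1.25 and Galnt3, a glycosyltransferase gene, by -1.11 (adjusted p = 0.428 for each); these neighbours were looked at after the values were seen.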
